A study of Mus musculus with 11 samples.

Results

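RNA of the matrix metalloproteinases (MMPs) and of their tissue inhibitors (TIMPs) was measured in the aorta of old mice after nitrate supplementation. The 10 genes were taken by name from the arrays as Mmp2, Mmp3, Mmp9, Mmp12, Mmp13, Mmp14, Timp1, Timp2, Timp3 and Timp4. They had 12 of the 55681 probes other than control probes, and every one of these probes is reported. Their names stood among 36413 on the array. Both groups were male C57BL/6 mice aged 20 months on standard chow, with the descending aorta cleaned of the surrounding fat. 5 aortas came from mice given 1 g/L NaNO3 in drinking water for 8 weeks (nitrate treated mice), and 6 came from controls. The methods describe sodium chloride for the controls, while the labels name no salt for them and call them a reanalysis of earlier samples. The group of nitrate treated mice is a whole vessel model of male animals of 1 strain, in which no single cell type was isolated.

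MMPs are zinc-dependent endopeptidases that are made as inactive proenzymes and cut collagens, elastin, gelatin and other proteins of the extracellular matrix once the propeptide is removed. TIMPs bind the active site of MMPs and, to different extents, of ADAM and ADAMTS proteinases, and TIMP2 also takes part with MMP14 in the activation of proMMP2 at the cell surface. In the arterial wall these enzymes are known for their part in turnover of the elastic laminae and collagen, in the migration of smooth muscle cells and in the entry of leukocytes.

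Values are processed Cy3 signals, quantile normalized over the 11 arrays on the log2 scale, with mean ± SD over animals, and differences are nitrate minus control. A probe counted as detected where 5 or more arrays of a group had its spot both marked as found by the scanner software and well above background. Where a gene had several detected probes, the brightest on average stood for it. Differential expression was called at an unadjusted P under 0.05 in limma with a fold change above 1.2. Levels of different genes were not compared with each other, since probes differ in how well they hybridize. The number of animals limits the precision. A limma P sets a difference against the spread between these animals, drawn towards that of the other probes. In whole aorta, fewer cells of a type and less RNA per cell cannot be told apart.

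All 11 arrays were used. Signals at the 75th percentile lay between 189 and 254, and each array had a mean correlation of 0.978 to 0.987 with the others. The arrays lay on 3 slides that each held both groups. All 6 controls and no nitrate treated mouse lay in slide column 3, so column and treatment cannot be told apart. Smooth muscle markers (9 of 9, Acta2 and Tagln among them) and endothelial markers (9 of 9, Egfl7 and Ptprb among them) were detected. So were 16 of 16 adipocyte markers.

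Of the 10 genes, 7 were detected, namely Mmp2, Mmp3, Mmp9, Mmp14, Timp2, Timp3 and Timp4. Mmp9 was the 1 gene that met the rule for a call, as lower in nitrate treated mice. It entered the tested set only through the controls, with signal above background on 6 of 6 control and 3 of 5 nitrate arrays, and with normexp background correction and an offset of 50 together 0 genes were called. Among all 18293 detected names, 8.89% met the same rule, 4.27% as higher and 4.62% as lower. At an unadjusted P under 0.05 without a limit on the fold change, 2 of the 7 genes passed, Mmp9 and Timp3, beside 14.5% of all names. After Benjamini-Hochberg adjustment in limma 0 of the 7 passed, against 1 name in all, or 0.00547%. In 0 of the 7 did the groups fail to overlap, beside 2.94% of all names. The counts lie near these shares of all names and are no result about the genes as a group. The median difference was 0.08 over the 7 genes, 4 of which were higher, and 0.02 over all names, of which 9981 were higher.

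**Figure D1:**
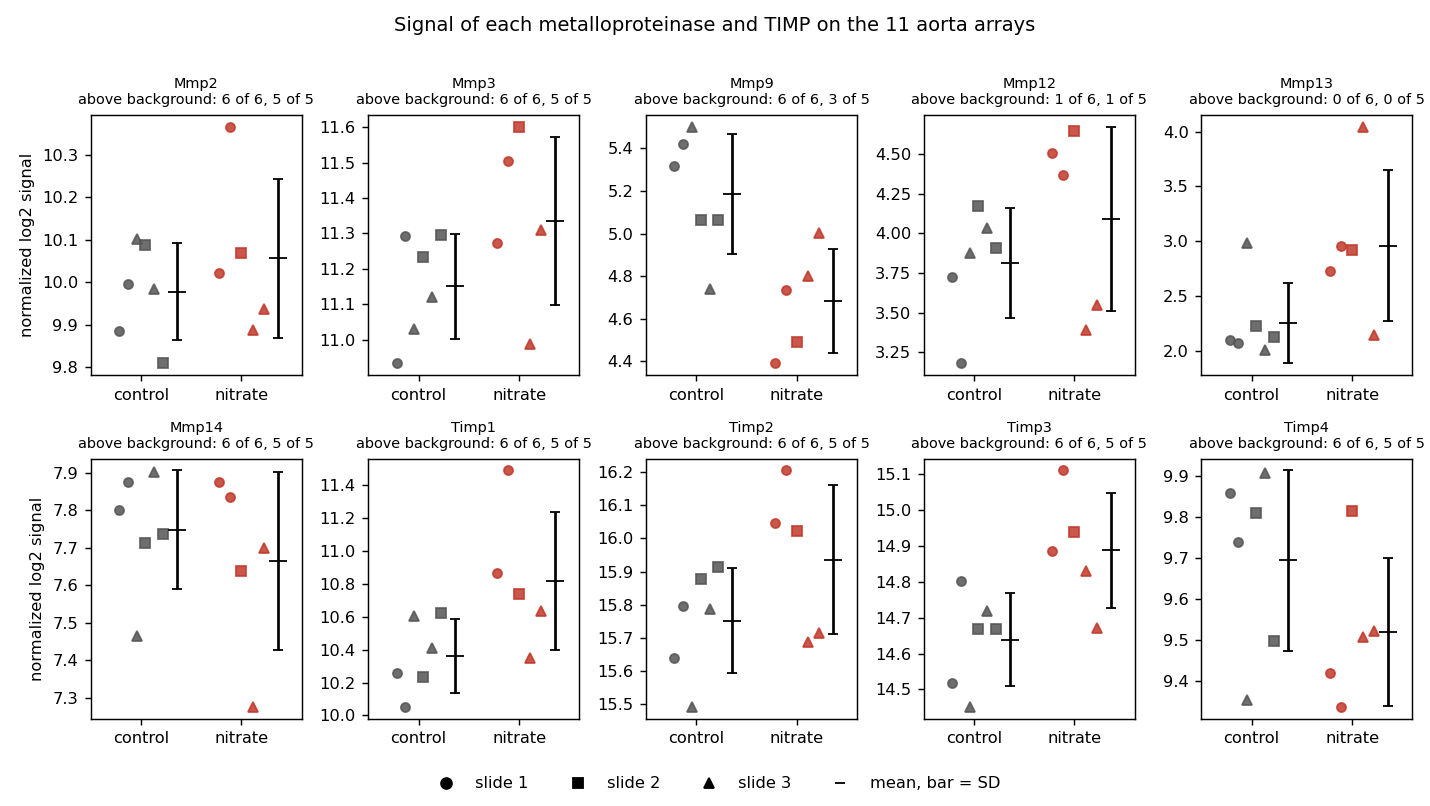
Normalized log2 signal (vertical axes, each with its own range) of the reference probe of each gene in 6 controls (grey) and 5 nitrate treated mice (red), with symbols for slides 1 to 3, and mean with SD beside the points. Titles give the arrays above background in controls and then in nitrate treated mice. Mmp9 lay lower in nitrate treated mice and Timp3 higher, each with overlap, and Mmp12 and Mmp13 were above background on few arrays or on none.

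The gelatinases MMP2 and MMP9 cut denatured collagen and basement membrane collagen. MMP9 is stored in neutrophil granules and is also made by macrophages, and MMP2 is made by resident fibroblasts and smooth muscle cells. The Mmp9 probe lies at chr2:164780620-164780679 (mm9, plus strand). The nitrate treated mice had values of 4.39, 4.73, 4.49, 4.80 and 5.0, and the controls ranged from 4.74 to 5.50 with a median of 5.19. A single control (mouse 5, at 4.74) fell among the nitrate treated mice and the other controls lay above all of them. The means were 4.68 ± 0.24 (n = 5) and 5.19 ± 0.28 (n = 6). The difference of these signals was -0.50 (SE 0.15, 95% interval -0.83 to -0.18), with a limma P of 0.00555, adjusted P of 0.206 and two-sided exact permutation P of 0.0130. It includes nitrate treated mice 1 and 3, whose probe was not above background, so neither its size nor its P is firm.

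The values of nitrate treated mice 1 and 3, at 4.39 and 4.49, lay near the lowest signal of any probe well above background on their arrays, at 4.35 and 4.31. The array carries this probe in 10 spots, of which 2 in all were flagged and left out. Of the spots used, 36 of 49 lay above background in nitrate treated mice and 57 of 59 in controls. Spots of 1 array scattered with an SD of 0.17 to 0.35 log2 units in nitrate treated mice and 0.11 to 0.34 in controls. The mean of the spots of an array had a standard error of 0.036 to 0.112. The number of spots above background per array went from 4 to 10 in nitrate treated mice and from 8 to 10 in controls. With normexp background correction and an offset of 50, changed together, the difference was -0.17 (limma P 0.0203), which is under the fold limit, and with 16 alone added to the processed signal it was -0.33.

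**Figure D2:**
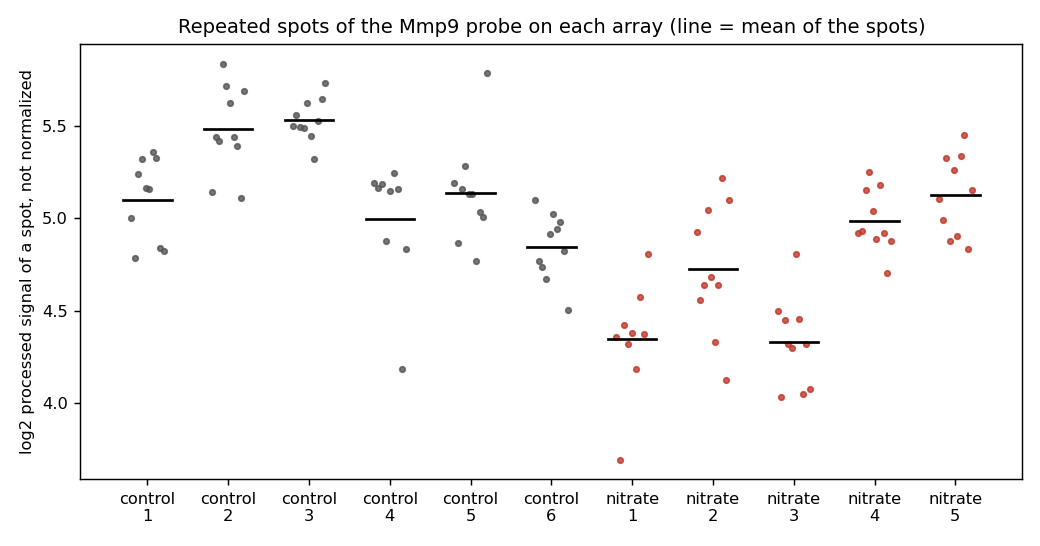
Log2 processed signal (vertical axis, before normalization between arrays) of each unflagged spot of the Mmp9 probe on the 6 control arrays (grey) and 5 nitrate arrays (red), with a line at the mean of the spots. The spots of nitrate 1 and nitrate 3 lay lowest, and those of control 2 and control 3 highest. The means of nitrate 4 (4.99) and nitrate 5 (5.12) lay among those of the controls, above control 6 (4.85).

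Within slides the Mmp9 difference was -0.81 on slide 1 (2 against 2 mice), -0.57 on slide 2 (1 against 2) and -0.22 on slide 3 (2 against 2). The values of slides 1 and 2 include nitrate treated mice 1 and 3, whose probe was not above background, and only on slide 3 was it above background on every array. Markers of the leukocytes that make MMP9 were read beside it. Of 9 macrophage markers on the array, 9 were detected and 9 were higher, with 0 called, and their summed linear signal ranged from 32564 to 44921 in nitrate treated mice and from 31300 to 39848 in controls. Of 9 neutrophil markers, 4 were detected (S100a8, S100a9, Camp and Elane), while the granule and receptor genes Ngp, Ltf, Retnlg, Mpo and Cxcr2 were not. Of the 4, 1 was higher and 3 were lower. S100a9, a calcium-binding protein of neutrophils and monocytes, was lower by the same rule (-0.88, limma P 0.0488, adjusted P 0.345, exact permutation P 0.0606), and S100a8 had a difference of -0.70 (limma P 0.0631). Camp, a granule peptide, had a difference of -0.05 (limma P 0.725) and Elane, neutrophil elastase, of 0.04 (limma P 0.600). The summed signal of the 4 neutrophil markers ranged from 580 to 634 in nitrate treated mice and from 580 to 1830 in controls.

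Adipocyte markers were read as well. Of 16 detected, 15 were lower and 8 were called, all lower, and the groups did not overlap for Adipoq (-0.49), Retn (-0.84) and Pparg (-0.57). Over all names 4.62% were called as lower and 2.94% did not overlap. Their summed signal was 396948 to 528655 in nitrate treated mice and 477389 to 669482 in controls. The part of neutrophils and of fat in the Mmp9 difference was not tested.

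Over the 11 arrays, the genes whose centred values were closest to those of Mmp9 were Acvr1c (mean absolute difference 0.118 log2 units), Aldh4a1 (0.122) and Adhfe1 (0.131), among 12212 genes compared. Mmp9 itself spanned 1.11 log2 units, with nitrate treated mice 1 and 3 included, whose probe was not above background. Acvr1c, a receptor of the activin and nodal family, had a difference of -0.57 between groups, Aldh4a1, a mitochondrial enzyme of proline breakdown, of -0.35, and Adhfe1 of -0.43. These 3 were picked for their likeness, so their differences are a description.

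Mmp2 (chr8:95376840-95376899, plus strand) had values of 10.02, 10.37, 10.07, 9.89 and 9.94 in nitrate treated mice, and of 9.81 to 10.10 with a median of 9.99 in controls. Apart from nitrate treated mouse 2, all lay within the range of the controls. The difference of 0.08 had a 95% interval of -0.12 to 0.28 and a limma P of 0.413 (exact permutation P 0.444). Without nitrate treated mouse 2 it was 0.001 (limma P 0.986). On slide 3 it was -0.13, and on slides 1 and 2 it was 0.25 and 0.12.

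MMP3, or stromelysin 1, cuts proteoglycans, fibronectin and basement membrane proteins and activates other proMMPs, proMMP9 among them. Its gene shares with those of Mmp12 and Mmp13 a chromosome 9 cluster that held 10 of the 23 Mmp genes known to RefSeq. The promoters of these 3 genes are shown because AP-1, the dimer of Fos and Jun proteins, is the textbook regulator of inducible MMP genes, and its site is present in each. The sequences are the 100 bases before the annotated start in RefSeq (GRCm38.p6, plus strand), 5′ to 3′, with capitals for TGANTCA, the AP-1 site, and for TATAAA.

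Mmp3, chr9:7445722-7445821: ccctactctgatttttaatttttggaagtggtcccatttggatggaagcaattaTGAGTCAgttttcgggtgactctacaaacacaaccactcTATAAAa
Mmp12, second window, chr9:7347274-7347373: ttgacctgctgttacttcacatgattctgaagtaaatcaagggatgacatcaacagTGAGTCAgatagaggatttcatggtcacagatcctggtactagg
Mmp13, chr9:7272414-7272513: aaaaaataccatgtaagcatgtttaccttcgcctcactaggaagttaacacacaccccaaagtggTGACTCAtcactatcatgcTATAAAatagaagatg

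Windows of 300 bases, with 250 before and 50 after the start, were searched on both strands, and TGANTCA reads the same on either. The AP-1 letters began at -46 in Mmp3, -44 in Mmp12 and -35 in Mmp13, counted from the start. Of 32851 promoter windows of RefSeq, 7.81% held TGANTCA and 13.6% held TATAAA. Of the 10 genes, 8 were found among them, with 9 windows. Besides the 3 windows above, which each held both motifs (TATAAA of Mmp12 after the start, outside the bases shown), the first Mmp12 window and those of Mmp14, Timp1, Timp2, Timp3 and Timp4 held neither. Mmp2 and Mmp9 had no entry. A match is a run of letters and was not measured as a bound site.

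Mmp3 (chr9:7455751-7455810, plus strand) was detected on all 11 arrays. Nitrate treated mice had values of 11.27, 11.50, 11.60, 10.99 and 11.31 and controls 10.93 to 11.30 with a median of 11.18. Nitrate treated mice 2, 3 and 5 lay above the highest control, and mouse 4 lay near the lowest. The difference was 0.18 (95% interval -0.06 to 0.43, limma P 0.128, exact permutation P 0.156). It was positive on all 3 slides, at 0.28, 0.34 and 0.07. With slide as a block the difference was 0.21 (limma P 0.0497, adjusted P 0.287). Without nitrate treated mouse 3 it was 0.12 (limma P 0.313). The P for Mmp3 was under 0.05 in 2 of 25 alternatives.

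MMP12 is the elastase of macrophages, and MMP13 is the main interstitial collagenase of the mouse. The brighter Mmp12 probe (chr9:7352935-7352994) was above background on 1 of 5 nitrate arrays and 1 of 6 control arrays, and the second (chr9:7360373-7360432) on 0 of 11. The Mmp13 probe (chr9:7282762-7282821) was above background on 0 of 11 arrays. No fold change is given for either gene. Their probes thus set no level for these enzymes in either group at the sensitivity of the array.

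MMP14 is a membrane-bound MMP that cuts fibrillar collagen and activates proMMP2. Its probe (chr14:55058775-55058834, plus strand) read 7.87, 7.84, 7.64, 7.28 and 7.70 in nitrate treated mice and 7.46 to 7.90 with a median of 7.77 in controls. Only nitrate treated mouse 4 lay outside the range of the controls. The difference of -0.08 had a 95% interval of -0.33 to 0.17 and a limma P of 0.478 (exact permutation P 0.502). Without that mouse it was 0.01.

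**Figure D3:**
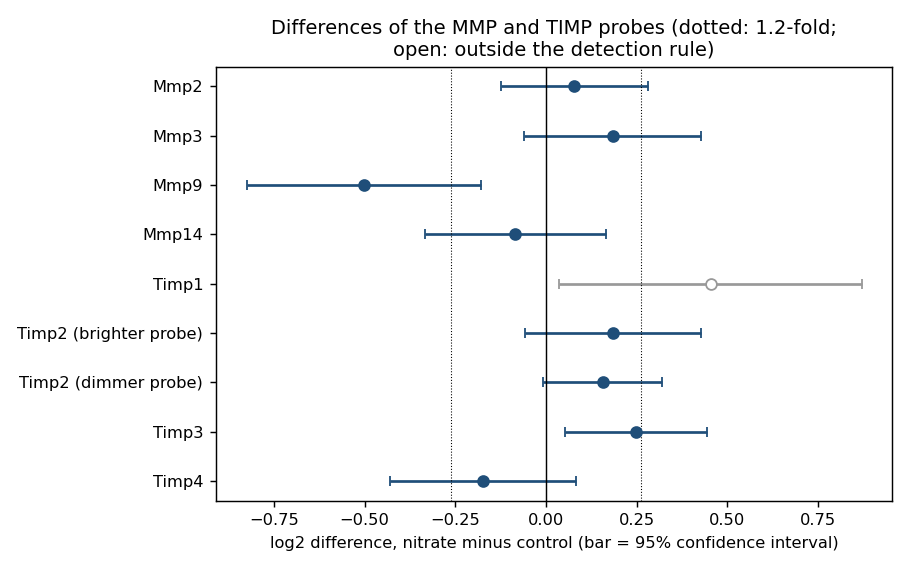
Log2 difference of nitrate treated mice minus controls (horizontal axis) with its 95% confidence interval for the probes of the genes above background on most arrays, Mmp12 and Mmp13 left out. Dotted lines mark a 1.2-fold change and the open symbol a probe outside the detection rule. The interval lay below 0 for Mmp9 and above 0 for Timp3 and Timp1, and it included 0 for the other probes.

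The TIMPs differ in distribution. TIMP1 is secreted and inducible, TIMP2 is widely made, TIMP3 is held in the extracellular matrix and inhibits ADAM17 and several ADAMTS enzymes, and TIMP4 is typical of heart, vessels and fat. The promoters of Timp1 and Timp3, the TIMP genes with the larger differences, are shown for contrast, in the same form, and hold neither motif.

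Timp1, chrX:20870066-20870165: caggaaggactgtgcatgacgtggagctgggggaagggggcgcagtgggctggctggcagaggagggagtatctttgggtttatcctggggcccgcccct
Timp3, chr10:86300312-86300411: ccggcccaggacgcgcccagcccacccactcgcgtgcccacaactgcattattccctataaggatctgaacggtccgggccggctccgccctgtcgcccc

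Timp3 (chr10:85811696-85811755, plus strand) had signals of 14.88, 15.11, 14.94, 14.83 and 14.67 in nitrate treated mice. The controls ranged from 14.45 to 14.80 with a median of 14.67. All nitrate treated mice but mouse 5 lay above every control. The means were 14.89 ± 0.16 (n = 5) and 14.64 ± 0.13 (n = 6), and the difference was 0.25 (SE 0.09, 95% interval 0.05 to 0.45). This gave a limma P of 0.0170, an adjusted P of 0.273 and an exact permutation P of 0.0173. The fold change of 1.19 was just under the limit of 1.2. Within slides the difference was 0.34, 0.27 and 0.17, the same sign on all 3. Without nitrate treated mouse 2 the P was 0.0506.

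Timp1 (chrX:20451802-20451861, plus strand) was above background on all 11 arrays, but its spot was marked as found on 2 of 5 nitrate and 4 of 6 control arrays, so it fell outside the detection rule. Nitrate treated mice had values of 10.87, 11.49, 10.74, 10.35 and 10.64. The controls ranged from 10.05 to 10.62 with a median of 10.33. All nitrate treated mice but mouse 4 lay above the highest control, and mouse 2 stood above the rest. The difference was 0.45 (SE 0.19, 95% interval 0.04 to 0.87), a fold change of 1.37. Its P was 0.0356 in a limma fit over all probes, and the exact permutation P was 0.0346. With slide as a block the difference was 0.46 and the limma P 0.0568. Without the spot-found requirement, a rule chosen after seeing the data, Timp1 was among 2 of 8 genes called, at a limma P of 0.0265 and an adjusted P of 0.307, beside 9.03% of 19746 names.

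Within slides the Timp1 difference was 1.02 on slide 1, 0.31 on slide 2 and -0.01 on slide 3. Without nitrate treated mouse 2 it was 0.29 with a limma P of 0.0685.

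**Figure D4:**
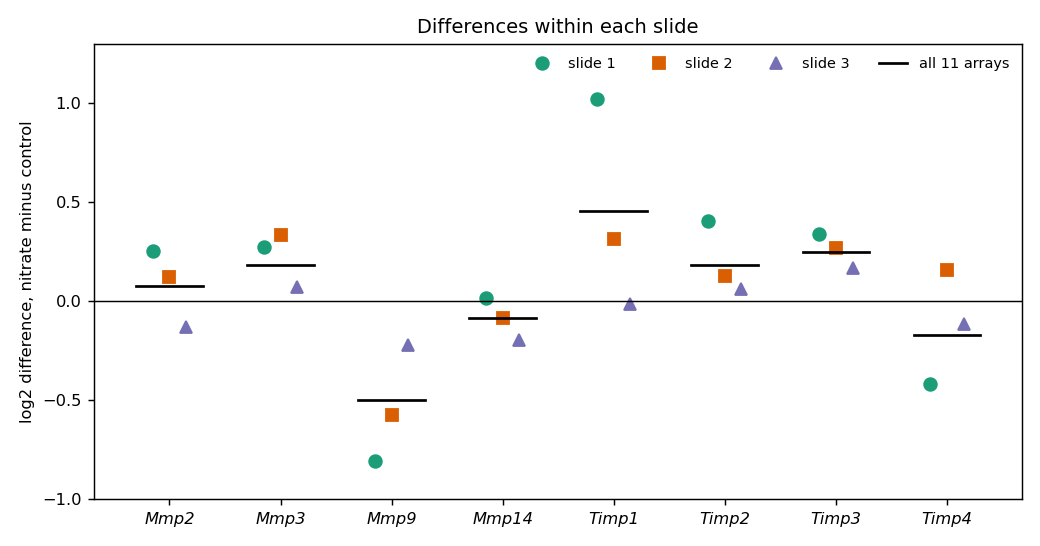
Log2 difference of nitrate treated mice minus controls (vertical axis) within slide 1 (circles), slide 2 (squares) and slide 3 (triangles), with a line at the difference over all 11 arrays. Mmp3, Timp2 and Timp3 had positive differences on all 3 slides, the Mmp9 values of slides 1 and 2 include arrays where its probe was not above background, and Timp1 went from 1.02 on slide 1 to -0.01 on slide 3.

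Timp2 had a pair of detected probes. The brighter (chr11:118163146-118163205, minus strand) read 16.05, 16.20, 16.02, 15.69 and 15.72 in nitrate treated mice and 15.49 to 15.91 with a median of 15.79 in controls. Nitrate treated mice 1, 2 and 3 lay above all controls, and mice 4 and 5, both on slide 3, lay among them. The difference was 0.18 (95% interval -0.06 to 0.43, limma P 0.124, adjusted P 0.473, exact permutation P 0.147). With slide as a block it was 0.21 (limma P 0.0365, adjusted P 0.261), the only 1 of 25 alternatives with a P under 0.05. Without nitrate treated mouse 2 it was 0.12 (limma P 0.310).

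The dimmer Timp2 probe is given a span of chr11:118171964-118178741, longer than a probe, as for a sequence across an exon junction. It read 11.91, 12.14, 12.06, 11.82 and 11.85 in nitrate treated mice and 11.68 to 11.92 with a median of 11.80 in controls. Its difference was 0.16 (95% interval -0.01 to 0.32) with a limma P of 0.0597 and an exact permutation P of 0.0411. Both probes thus gave differences of like size, and the tests lay on different sides of 0.05 for the dimmer one. The genes with centred values closest to the brighter probe, which spanned 0.71 log2 units, were Cspg4 (mean absolute difference 0.047), Zfp1 (0.055) and Tuba1a (0.055).

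Timp4 (chr6:115196120-115196179, minus strand) had signals of 9.42, 9.34, 9.81, 9.51 and 9.52 in nitrate treated mice and of 9.35 to 9.91 with a median of 9.77 in controls. The groups overlapped over nearly their whole range. The difference was -0.17 (95% interval -0.43 to 0.08, limma P 0.164, exact permutation P 0.186). Within slides it was -0.42, 0.16 and -0.12, with a change of sign. Of 10 cardiac muscle markers 8 were detected, 7 of them higher and 0 called, and their summed signal ranged from 3849 to 78327 in nitrate treated mice and from 2853 to 50388 in controls. Of the adipocyte markers given above, 15 of 16 were lower with 8 called. Of 7 brown adipocyte markers, 7 were detected, 3 higher and 4 lower. Among these 1 was called, as lower, beside 4.62% of all names. The part of any of these lists in the Timp4 values was not tested. Timp1, Timp3 and Timp4 each lie within a synapsin gene (Syn1, Syn3 and Syn2) in the RefSeq table, and the probes of these synapsin genes were above background on all 11 arrays.

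Some mice stood apart in several genes. Nitrate treated mouse 2 had the highest value of all 11 arrays for Mmp2, Timp1, both Timp2 probes and Timp3, and nitrate treated mouse 4 had the lowest of its group for Mmp2, Mmp3, Mmp14, Timp1 and Timp2. Fibroblast markers, from the cells that make many of these proteins, were detected in 10 of 10, with 10 higher and 0 called. Their median difference was 0.17, and their summed signal was 183539 to 229011 in nitrate treated mice and 163051 to 206322 in controls. Of 9 smooth muscle markers 8 were higher and 1 was called, Lmod1 (0.31, limma P 0.0209, adjusted P 0.285), and the groups did not overlap for 1, Smtn (0.26), beside 8.89% called and 2.94% without overlap over all names. Their summed signal was 925591 to 958452 in nitrate treated mice and 726818 to 962674 in controls. The part of either list in any MMP or TIMP value was not tested.

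The wider MMP system was read from 5 hand-written lists of 73 genes, of which 43 were detected. Of these, 5 were called, 3 higher and 2 lower, and 0 passed the Benjamini-Hochberg adjustment in limma. The median difference over the 43 was 0.04. The 8.89% of all names called is the background for this count.

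Of 17 other MMPs, 4 were detected, with a median difference of 0.11. Mmp15, a membrane-type MMP, was called. It ranged from 5.01 to 6.01 with a median of 5.40 in nitrate treated mice and from 5.47 to 6.51 with a median of 6.05 in controls, a difference of -0.61 (SE 0.21, limma P 0.0151, adjusted P 0.267, exact permutation P 0.0346). The groups overlapped. The other 13, Mmp1a, Mmp1b, Mmp7, Mmp8, Mmp10, Mmp16, Mmp19, Mmp20, Mmp21, Mmp24, Mmp25, Mmp27 and Mmp28, were not detected by the rule, although Mmp19 was above background on all 11 arrays. The neutrophil collagenase Mmp8 was above background on 0 of 11.

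Of 19 ADAM and ADAMTS proteinases that TIMPs can bind, 13 were detected, 8 of them higher, with a median difference of 0.14. Adam19 was called at 0.27 (SE 0.10, limma P 0.0248, adjusted P 0.295), with values of 8.75 to 9.28 in nitrate treated mice and 8.55 to 8.97 in controls. Adamts10, which is linked to fibrillin microfibrils, was above background on all 11 arrays but outside the rule by the spot-found flag. It read 7.36 to 7.61 in nitrate treated mice and 7.04 to 7.23 in controls, with no overlap, at a difference of 0.32. Over all detected names, which leave it out, 2.94% did not overlap, and of the 43 detected genes of the further lists 0. Adam12 was outside the rule for the same reason, with a difference of -0.41 (limma P over all probes 0.0223). Adam10, Adam28, Adamts7 and Adamts12 were also not detected by the rule, although Adam10 was above background on all 11 arrays.

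Of 14 activators of proMMPs, 11 were detected, with a median difference of 0.00. Plat, the tissue-type plasminogen activator, was called at 0.35 (SE 0.14, limma P 0.0247, adjusted P 0.294, exact permutation P 0.0216). Its values were 9.72 to 10.45 in nitrate treated mice and 9.61 to 9.83 in controls. Tpsb2, a mast cell tryptase, was called at -0.40 (SE 0.14, limma P 0.0137, adjusted P 0.260, exact permutation P 0.0260), with values of 7.98 to 8.88 and 8.63 to 8.98. Plg, Plau and Ctsg were not detected.

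Of 16 other inhibitors of MMPs and of their activators, 9 were detected, with a median difference of 0.14. Reck, a membrane-anchored inhibitor of MMPs, was called at 0.30 (SE 0.11, limma P 0.0233, adjusted P 0.290, exact permutation P 0.0303), with values of 8.13 to 8.43 in nitrate treated mice and 7.61 to 8.26 in controls. A2m, Pzp, Tfpi2, Serpinb2, Serpinf2, Spock1 and Spock3 were not detected. Of 7 AP-1 subunits, 6 were detected and 0 were called, with a median difference of -0.18 and differences between -0.44 and 0.23. Fosl1 was not detected.

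Of the 5 calls in these lists, Mmp15 and Tpsb2 were kept with each array left out in turn. Adam19 was not called without nitrate treated mouse 1, 2 or 5 or without control 1, 5 or 6, and Reck not without nitrate treated mouse 1 or 2 or control 1 or 6. Plat was not called without nitrate treated mouse 1 or 2. Adam19 and Reck were also not called with normexp and its offset of 50, Adam19 not with 16 added to the signal, and Reck not with the mean of all its detected probes.

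**Figure D5:**
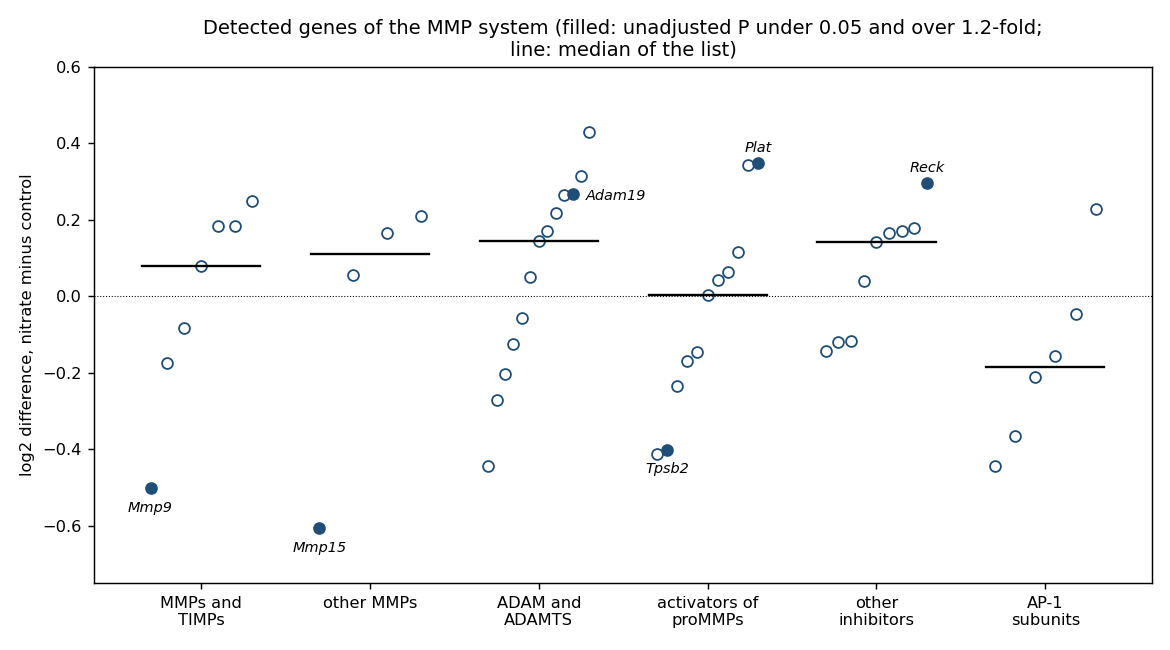
Log2 difference of nitrate treated mice minus controls (vertical axis) for the detected genes of the MMPs and TIMPs and of 5 further lists (horizontal axis), each point a gene and each line a list's median. Filled points met the rule for a call and are named, with Mmp9, Mmp15 and Tpsb2 below 0 and Adam19, Plat and Reck above.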

How the data were processed

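RNA of 11 mouse aortas was hybridized to 1-colour arrays. The deposited spot intensities were written by Feature Extraction 10.7.1.1, background-subtracted by the authors' scanner software and not normalized between arrays, together with flags for other spot properties. The authors also deposited log2 values, quantile normalized and centred on the median over arrays, with column medians between -0.027 and 0; these matched the intensities and served as an alternative.

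Here signals below 1 were set to 1, spots of control probes and spots with an outlier flag were dropped, repeated spots were averaged per probe, and the log2 values were quantile normalized (R 4.3.3, limma 3.58.1). Of 55681 probes, 23629 were detected. A probe with several spots needed a share over 0.5 of them found and above background. The comparison used lmFit and eBayes on the 11 arrays, with Benjamini-Hochberg adjustment over detected probes and exact permutation over 462 divisions (smallest P 0.00216). Probes outside the detection rule were read from a fit over all probes. The test was checked on simulated data. Positions are in mm9, from the files, and whether probes lie in coding sequence or a UTR was not analysed here.

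The genes named were all 10 MMPs and TIMPs and the called or undetected genes of the other lists. Also named were leading markers, the markers listed below, and the 3 genes most like each of the 2 detected genes with the widest range. Members and lists were chosen with earlier results of these data known. Adipoq, Retn, Pparg and Smtn are named because their groups did not overlap, and Lmod1 because it was called. Camp, Elane and S100a8 are named to give all detected neutrophil markers beside S100a9. Alternatives changed the background correction (normexp with an offset of 50), the normalization, the offset (16), the source table, detection rules, flagged spots, prior variance, slide and replicate number as blocks, probe choice, the test, and each array left out.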

Additional observations from a re-analysis of the deposited data

Results flagged for a closer look

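Among 20 groups of values (10 genes in 2 groups), 1 held a sample far from the others, as many as the 1 that chance gives at this limit. The Mmp13 value of control 3 stood above the other controls, with a gap to the nearest of them that was 0.780 of the range of the group. The Mmp13 probe was above background on 0 of 11 arrays, so the value sets no level.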

How the results depend on the processing

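The count of called genes among the 10 was 1, Mmp9. It was 0 with normexp background correction and an offset of 50, which changed together, 3 with no detection filter (Mmp9, Mmp13 and Timp1) and 2 without the spot-found flag, an alternative chosen after seeing the data (Mmp9 and Timp1). With a signal above background required on all 11 arrays and the spot-found flag dropped, it was 1, Timp1, and Mmp9 was not in the set. With arrays left out in turn it ranged from 1 to 3, reaching 3 without nitrate treated mouse 4 (Mmp3, Mmp9 and Timp3) and 2 without nitrate treated mouse 5, control 2 or control 5 (Mmp9 and Timp3). The count after Benjamini-Hochberg adjustment in limma was 0 under every alternative run, against 2 of 7 at an unadjusted P under 0.05. For the 5 further lists the count of 5 became 3 with normexp and its offset (Mmp15, Plat and Tpsb2) and 3 with the replicate block (Fosb, Mmp15 and Tpsb2), and ranged from 2 to 9 with arrays left out, with 2 without nitrate treated mouse 2, 9 without nitrate treated mouse 4, and 3 without nitrate treated mouse 1, control 1 or control 6. The share of all names called was 8.89% by the main rule and 9.03% without the spot-found flag. It was not taken under the other alternatives, so their counts have no background and are no result about the genes. Over 25 alternatives the Mmp9 difference ranged from -0.59 to -0.17, which is no support for a probe that was not above background on 2 of 5 nitrate arrays. That of Timp3 ranged from 0.19 to 0.30 with a P under 0.05 in 24, and that of Timp1 from 0.29 to 0.57 with a P under 0.05 in 16, and its P was 0.0671 with the replicate block. The direction turned in 1 case, Mmp14 without nitrate treated mouse 4 (0.0133). Deviations of same-numbered arrays of the 2 groups had correlations of -0.14 to 0.18. Such correlations cannot show whether mice were paired in handling, and the comparison was unpaired. With the replicate block the count for the 10 genes was 1. The causes were not tested. The Mmp9, Mmp12 and Mmp13 probes lay near or below background, which limits what these arrays show of them.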
